A study of Mus musculus with 4 samples.

Results

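The miR-17-92 cluster is a polycistron: 1 long non-coding transcript, Mir17hg, from which 6 microRNA hairpins are cut. The data held 1 gene model for each hairpin (Mir17, Mir18, Mir19a, Mir20a, Mir19b-1 and Mir92-1) and 1 for the host, 7 of 50600 models in all. They were taken by symbol and had been selected on their expected counts in these LARP7 and IgG libraries, so the difference between the antibodies at the members is described here and not tested. RNA had been immunoprecipitated (RIP) from testes of C57BL/6 mice aged 8 weeks, with no transgene or mutation named in the labels. There were 2 groups of 2 libraries, the LARP7 RIP with an antibody to LARP7 and the IgG RIP with a non-specific IgG that measures the background of sticking RNA. LARP7 is a La-related protein known for holding the 3′ ends of 7SK RNA and of U6 RNA, and the RNAs pulled down with it were the question of the study. The series text calls the replicates biological, but the labels name no animals for them, so p-values below cover only how far the libraries of a group differed, and such differences may be technical. In bulk tissue, fewer cells of a type and less RNA per cell cannot be told apart.

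In the nucleus the Drosha and Dgcr8 complex cuts each hairpin, the precursor, out of the primary transcript, and export to the cytoplasm and cutting by Dicer1 leave a mature arm that Argonaute proteins carry to target mRNAs. An arm finds its targets mainly by its seed, bases 2 to 8. The cluster is induced by Myc and E2F factors, is known as an oncogene in lymphoma, and is expressed in the male germ line. Its 6 arms fall into 4 seed families, and the guide arms are shown because this grouping is used throughout. The sequences are from RefSeq, 5′ to 3′, with the seed in capitals.
miR-17-5p: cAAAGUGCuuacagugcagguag
miR-20a-5p: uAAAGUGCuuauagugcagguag
miR-18a-5p: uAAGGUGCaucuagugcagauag
miR-19a-3p: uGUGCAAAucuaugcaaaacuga
miR-19b-3p: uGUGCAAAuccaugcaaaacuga
miR-92a-3p: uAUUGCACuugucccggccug
The arms of Mir17 and Mir20a differ at 2 of 23 bases and those of Mir19a and Mir19b-1 at 1 of 23, whereas miR-92a-3p shares its seed with no other member of the cluster.

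The gene models of these libraries are hairpins and not arms. As the reads had been divided between models, 1 hairpin carried nearly all the precursor counts. Mir92-1 (ENSMUSG00000076062.1) is 80 nt long and is printed from RefSeq with both annotated arms in capitals, on the plus strand of GRCm38.p6 at chr14:115044427-115044506. Its GC content is 47.5%, against 43.7% to 45.8% in the other 5 hairpins.
Mir92-1: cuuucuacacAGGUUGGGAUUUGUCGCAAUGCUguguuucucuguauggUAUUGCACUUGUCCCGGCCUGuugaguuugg

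All 6 precursors lie on the plus strand of chromosome 14 within 836 nt, separated by 35 to 96 nt. In order along the transcript they are Mir17 (ENSMUSG00000065508.1, 115043671 to 115043754), Mir18 (ENSMUSG00000065403.1, 115043851 to 115043946) and Mir19a (ENSMUSG00000065416.1, 115044000 to 115044081). Mir20a (ENSMUSG00000065442.1, 115044157 to 115044263), Mir19b-1 (ENSMUSG00000076256.1, 115044305 to 115044391) and Mir92-1 follow. The host Mir17hg (ENSMUSG00000089726.2) is annotated by RefSeq from 115044390 to 115046728, a span that contains 1 of the 6 hairpins, Mir92-1. The host model of the deposited files is 3536 nt long, 1197 nt longer than that span, and its coordinates are not used here. Which of the other 5 hairpins the longer model covers was not tested with coordinates, and the sharing of reads between the models is given below.

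Libraries held 6918040 and 6502682 expected counts with LARP7 and 6994514 and 4411271 with IgG. An expected count is RSEM's estimate for a model, in which a read that maps to several models is divided between them, and its posterior SD shows how far that division could move. The check of the RIP, the 7SK RNA Rn7sk, had 82249 and 213710 CPM (counts scaled to a common library size, here with TMM factors) with LARP7 and 3016 and 9774 with IgG. Its log2 fold change was 4.53 (SE 1.07, adjusted p = 0.0167 in edgeR's quasi-likelihood test), and it missed the threshold when either LARP7 library was left out (adjusted p = 0.0791 and 0.208). Each fit with a library left out has a lone library on that side, which is assumed to vary like the other group. No library was a copy of another: chi-square over its degrees of freedom was 124 between the LARP7 replicates (12594 genes) and 53.4 between the IgG replicates (15313 genes). All listed markers of spermatogonia, spermatocytes, spermatids, Sertoli, Leydig, peritubular, vascular and blood cells were detected. The 6 spermatid markers summed to 222 and 173 CPM of library totals with LARP7 and to 1785 and 1574 with IgG, the 5 spermatocyte markers to 55.9 and 54.6 against 185 and 139, and the 6 spermatogonial markers to 8.53 and 13.5 against 15.7 and 8.22. The part of these shifts in the values below was not tested.

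Mir92-1 had expected counts of 147.98 and 388.01 with LARP7 and of 0 and 0 with IgG. The posterior SDs were 3.76 and 2.50 with LARP7 and 2.03 and 1.28 with IgG. Both LARP7 libraries were high and the groups did not overlap, and the division of shared reads moved the LARP7 counts by only a few reads. The IgG zeros were not free of reads that could belong there, since the posterior mean count, an average over RSEM's sampled divisions, was 1.94 and 0.99. In CPM by TMM sizes Mir92-1 had 38.5 and 89.0 with LARP7 (63.7 ± 35.8, SD, n = 2) and 0 with IgG.

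Set against a floor of 3 counts summed over both IgG libraries, Mir92-1 was 416-fold higher with LARP7 by TMM sizes and 151-fold by library totals. This value is called a bound here, but it covers the expected counts only. The deposited credibility intervals, given below, reached up to 4.39 and 3.35 TPM in the IgG libraries, so smaller folds are not excluded. A bound of this kind takes RSEM's division of reads as given. If the host's reads are instead spread evenly along its effective length and those within the hairpin are given to Mir92-1, a setting chosen after seeing the data, Mir92-1 holds 567.93 counts over the LARP7 libraries and 32.685 over the IgG libraries, a TMM-scaled ratio of 40.5. The direction was the same under all of these settings, and the size depended on them. Against the same floor of 3 counts, Mir92-1 was 137-fold higher without IgG replicate 1 and 563-fold without LARP7 replicate 1.

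The other 5 precursors were at or near 0. Mir17 had 0 and 2.87 expected counts with LARP7 and 0 in both IgG libraries, and Mir19a had 0 and 0.82 with LARP7 and 0 in both IgG libraries. Their posterior SDs in LARP7 replicate 2 were 1.95 and 2.05. For Mir19a that SD is above the count itself. Mir18, Mir20a and Mir19b-1 had no expected counts in any of the 4 libraries. Even so, 5 of the 6 precursor models had a posterior SD above 0 in each LARP7 library, and 5 and 3 of them in the IgG libraries, so RSEM's sampling placed reads at some hairpins whose count was 0. In LARP7 replicate 2, for example, Mir18 had a count of 0 with a posterior SD of 1.79. Mir19b-1 had posterior SDs of 0.19 in LARP7 replicate 1 and 0.41 in IgG replicate 2, the same libraries in which Mir19b-2, an X-linked hairpin with the identical mature arm, had 0.26 and 0.58.

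Mir92-1 therefore held 100% of the precursor counts in LARP7 replicate 1 (exact Clopper-Pearson 95% interval 97.5% to 100%, on rounded counts) and 99.1% in LARP7 replicate 2 (97.4% to 99.7%). These intervals, like those below, cover counting error only, since reads without molecular identifiers are not independent molecules. The shares also take RSEM's division of reads as given. Spread evenly, the host's reads would put 191 and 75.3 into the 6 hairpins in LARP7 replicates 1 and 2. Of these, 22.7 and 9.27 would be in Mir92-1. That takes the host model to cover all 6 hairpins. Under this division Mir92-1 would hold 567.93 of 806.01 precursor counts over the LARP7 libraries, a smaller share. In the authors' TPM, which divides a count by the effective length that reads can start in, Mir92-1 was at 24.50 and 106.81 with LARP7 and listed at 0 in both IgG libraries. The deposited credibility interval was 20.6 to 28.8 TPM in LARP7 replicate 1 and 96.2 to 118 TPM in LARP7 replicate 2, and reached up to 4.39 and 3.35 TPM in the IgG libraries. Among the other 5 precursors the highest upper bound in a LARP7 library was 2.32 TPM, for Mir17. Per length, Mir92-1 was thus above every other hairpin of the same transcript in both LARP7 libraries, and the order of the other 5 was not resolved.

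**Figure D1:**
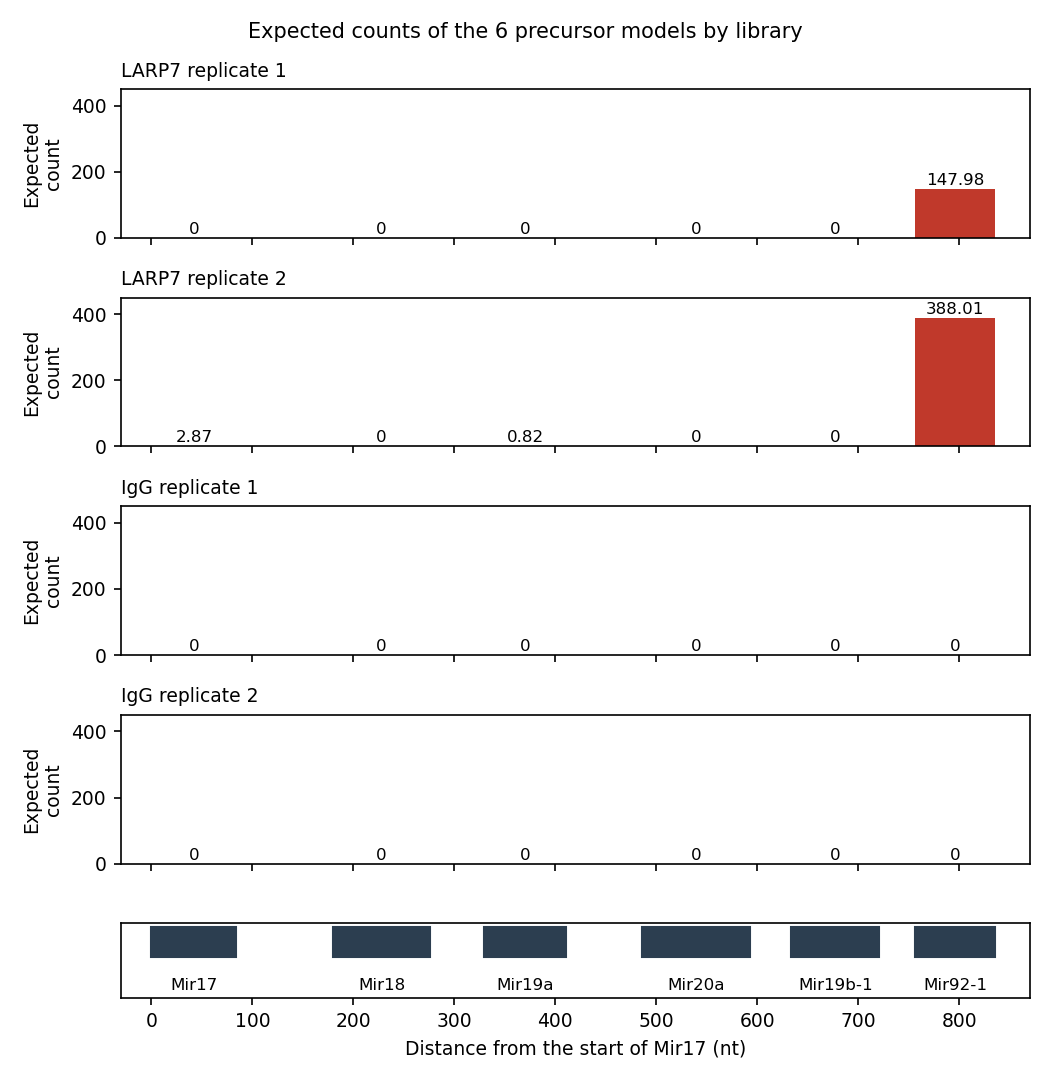
Expected counts (vertical axis) of the 6 precursor models in each of the 4 libraries, against distance in nt from the start of Mir17 (horizontal axis), with the hairpins drawn to scale in the bottom panel. Mir92-1 stands at 147.98 and 388.01 in the LARP7 libraries and at 0 in the IgG libraries, and the other 5 are at most 2.87.

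The host was counted in every library. Mir17hg had 3750.02 and 1379.30 expected counts with LARP7 and 2669 and 2024 with IgG, with posterior SDs of 3.82 and 4.30 with LARP7 and 2.13 and 1.47 with IgG. The LARP7 libraries lay above and below both IgG libraries, so the groups overlapped in counts. Summed over the host and its 6 precursors, the locus had 3898 and 1771 counts with LARP7 and 2669 and 2024 with IgG. These sums were whole to the 2 decimals of the files, although the host's and Mir92-1's own LARP7 counts were not. In LARP7 replicate 2 the whole sum includes the 2.87 counts of Mir17 and the 0.82 of Mir19a, so these hairpins shared reads with other models of the locus. The sums of posterior means were 3897.94 and 1771.00 with LARP7 and 2669.00 and 2023.71 with IgG, so RSEM's sampling moved reads almost wholly among these 7 models.

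The direction of the host followed the scaling. By TMM sizes Mir17hg had 974 and 317 CPM with LARP7 and 208 and 320 CPM with IgG (645 ± 465 against 264 ± 79.0, SD, n = 2 each), a fitted log2 fold change of 1.29 (SE 0.71). By library totals it had 542 and 212 CPM with LARP7 and 382 and 459 CPM with IgG (377 ± 233 against 420 ± 54.6), and the log2 fold change was -0.16. In TPM the host was at 3.75 and 2.55 with LARP7 and 10.16 and 8.01 with IgG, where the groups did not overlap and the difference on the log2(TPM + 1) scale was -1.29. The median of all genes moved as well, from -0.05 by TMM to -1.47 by library totals. The host was above those medians under both CPM scalings, and without LARP7 replicate 1 its TMM value was 0.24. On the log2(TPM + 1) scale the median was -0.29. The added 1 draws genes of low TPM towards 0 there, so the host is not ranked against that median. The summed locus had a log2 fold change of 1.42 (SE 0.68) by TMM and -0.01 by library totals.

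**Figure D2:**
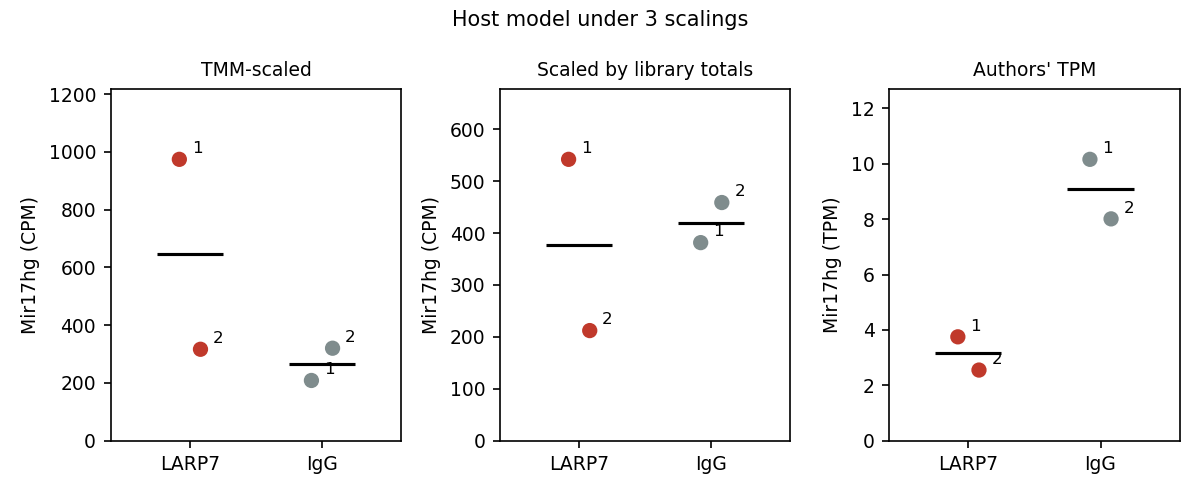
Level of the host model Mir17hg in the LARP7 and IgG libraries, in CPM by TMM library sizes (left), CPM by library totals (middle) and the authors' TPM (right); points are libraries with their replicate number and bars are group means. The groups overlap in both CPM panels and not in TPM, where the LARP7 libraries are at 3.75 and 2.55 and the IgG libraries at 10.16 and 8.01.

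A comparison within the locus is free of the library scaling. Mir92-1 took 3.80% of the locus counts in LARP7 replicate 1 (95% interval 3.22% to 4.45%) and 21.9% in LARP7 replicate 2 (20.0% to 23.9%). In the IgG libraries it took 0 of 2669 and 0 of 2024 counts, with upper 95% limits of 0.138% and 0.182% that cover counting error and take RSEM's division of reads as given. Both LARP7 shares were above those limits, and they differed from each other beyond counting error (12.9% ± 12.8, SD, n = 2). In TPM, the share of Mir92-1 at the locus was 86.7% and 96.9% with LARP7 and 0% in both IgG libraries.

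How many reads the division could hide was gauged from the host. Unless set otherwise, RSEM takes reads to start evenly along each model, so a hairpin nested in its host is given mainly the reads in excess of even host coverage. Whether the authors changed that setting is not known here. Spread evenly over its effective length of 3471.16 and 3473.22 nt in the LARP7 libraries, the host's reads would put 22.7 and 9.27 into the 20.98 and 23.35 nt effective length of Mir92-1. The same reckoning gives 19.0 and 13.7 reads in the IgG libraries. A count of 0 for Mir92-1 with IgG thus does not show that the hairpin had no reads there, and a low count of another hairpin within the host model is limited in the same way. The LARP7 counts of 147.98 and 388.01 are what RSEM gave to Mir92-1 beyond the host's own reads. The files hold no read positions, so coverage inside the hairpins was not tested.

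**Figure D3:**
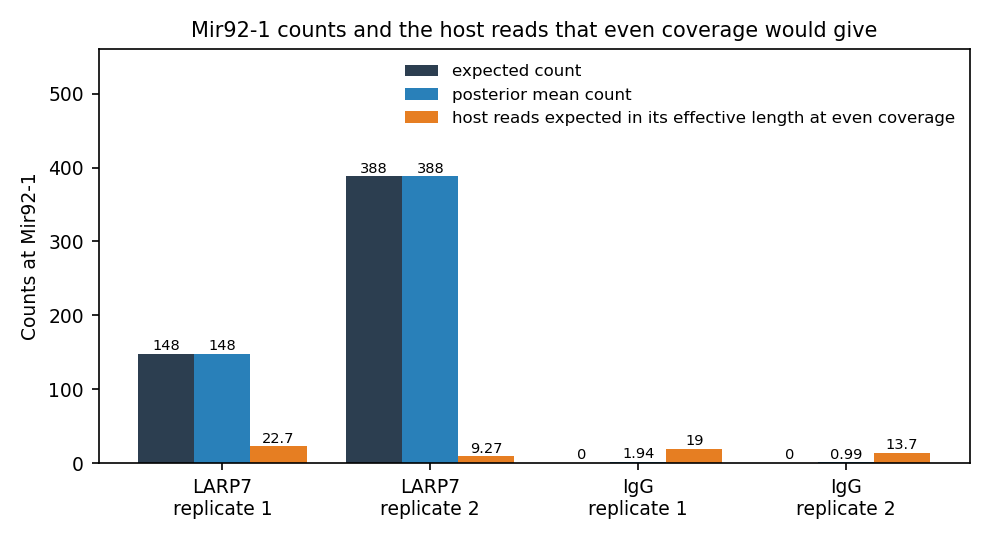
Mir92-1 in each library: the expected count, RSEM's posterior mean count, and the host reads that even coverage would place in the effective length of the hairpin (vertical axis, counts). The counts are 148 and 388 with LARP7 and 0 with IgG, beside even-coverage values of 22.7 and 9.27 with LARP7 and 19.0 and 13.7 with IgG, which RSEM may have left with the host.

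The hairpin and its host went opposite ways between the LARP7 replicates. From counts scaled by TMM sizes, the log2 ratio of replicate 2 to replicate 1 was 1.20 for Mir92-1 and -1.62 for Mir17hg. The median was 0.00 over all 12234 genes tested and 0.47 over the 77 microRNA models tested, of which 57 were higher in replicate 2. Mir92-1 shared its direction with most microRNA models, by a larger step than their median, and its host did not.

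Of the 7 members, Mir92-1 and Mir17hg passed the filter on low counts and entered the fit over all genes, Mir92-1 through its LARP7 counts alone. Across all 12234 genes tested, 24.2% were past the threshold in either direction, 14.5% higher and 9.69% lower with LARP7 (edgeR quasi-likelihood test, TMM sizes, Benjamini-Hochberg adjusted p under 0.05). Among the 2 members fitted, 1 was past it, from which nothing is read because the members were chosen with this contrast known.

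The 4 seed families have further members in a pair of paralogous clusters. One lies in an intron of Mcm7, which encodes a subunit of the replicative helicase, and holds Mir106b, Mir93 and Mir25. The other lies on the X chromosome and holds Mir106a, Mir18b, Mir20b, Mir19b-2, Mir92-2 and Mir363. Mir92-2 encodes the same mature arm as Mir92-1 and Mir25 one with the same seed, so their hairpins are shown from RefSeq with both arms in capitals (GRCm38.p6, minus strand, at chrX:52741838-52741928 and chr5:138165321-138165404).
Mir92-2: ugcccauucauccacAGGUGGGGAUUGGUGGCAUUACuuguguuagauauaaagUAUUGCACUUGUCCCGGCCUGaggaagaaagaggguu
Mir25: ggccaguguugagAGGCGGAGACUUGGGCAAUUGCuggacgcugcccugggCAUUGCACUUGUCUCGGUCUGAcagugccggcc
In a global alignment Mir92-1 is identical to Mir92-2 at 65.2% of columns and to Mir25 at 59.6%, so reads longer than an arm can tell them apart.

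Mir92-2 had 2 and 0 expected counts with LARP7 and 0 in both IgG libraries, with a posterior SD of 0.00 in all 4. RSEM's sampling thus moved no read into or out of Mir92-2. The other 5 X-linked precursors had 0 expected counts in every library, as did Kis2, the annotated host of that cluster. The same mature arm, miR-92a-3p, was thus represented by the hairpin of 1 locus at 147.98 and 388.01 counts and by that of the other at 2 and 0 in the LARP7 libraries.

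Both tested precursors of the Mcm7 cluster rose with LARP7 (2 of 9 paralogous precursors passed the filter, 2 higher and 0 lower, against 14.5% of all genes higher). Among the 77 microRNA models tested, 60 were higher and 1 lower, so such a rise was not particular to this cluster. Mir25, the miR-92 family member, had 55.20 and 101.62 expected counts with LARP7 and 14.40 and 6.55 with IgG, and its log2 fold change was 4.08 (SE 0.52, adjusted p = 0.00251 by edgeR). Mir93, of the miR-17 family, had 25.34 and 43.61 with LARP7 and 3.10 and 3.81 with IgG (4.35, SE 0.72, edgeR adjusted p = 0.00528). At 0.44 and 0.86 CPM of library totals with IgG, Mir93 passed the filter through its LARP7 counts alone and had little room to be lower. Groups did not overlap for either, and both calls held by library totals (2.69 and 2.98) and without each library in turn, but not with limma on TPM (adjusted p = 0.247 and 0.179). Mir106b, also of the miR-17 family, had 9 and 17 counts with LARP7 and 5 and 0 with IgG and was below the filter. Their host Mcm7 had 157.46 and 118.77 counts with LARP7 and 442.51 and 190.63 with IgG, with a log2 fold change of 0.07 (SE 0.42, edgeR adjusted p = 0.917) by TMM and -1.39 (adjusted p = 0.0181) by library totals.

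At the Mcm7 locus the 3 precursors took 36.3% (95% interval 30.4% to 42.8%) and 57.7% (51.6% to 63.5%) of the summed counts with LARP7 and 4.84% (2.99% to 7.08%) and 5.15% (2.41% to 8.96%) with IgG. Both polycistrons thus had a larger precursor share in each LARP7 library than in each IgG library, and in both the share was higher in LARP7 replicate 2 than in LARP7 replicate 1. They differed in how the precursors compared: Mir106b and Mir93 were counted beside Mir25, whereas the 5 neighbours of Mir92-1 were near 0. The Mcm7 hairpins are intronic and Mir92-1 lies within the span of its host. Reads were divided between models at the Mcm7 locus as well. Its summed counts were 247 and 281 with LARP7 and 465.01 and 200.99 with IgG, although the counts of Mir93, Mir25 and Mcm7 were not whole. The part of the division of reads in the difference between the loci was not tested. No test was made on these shares.

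**Figure D4:**
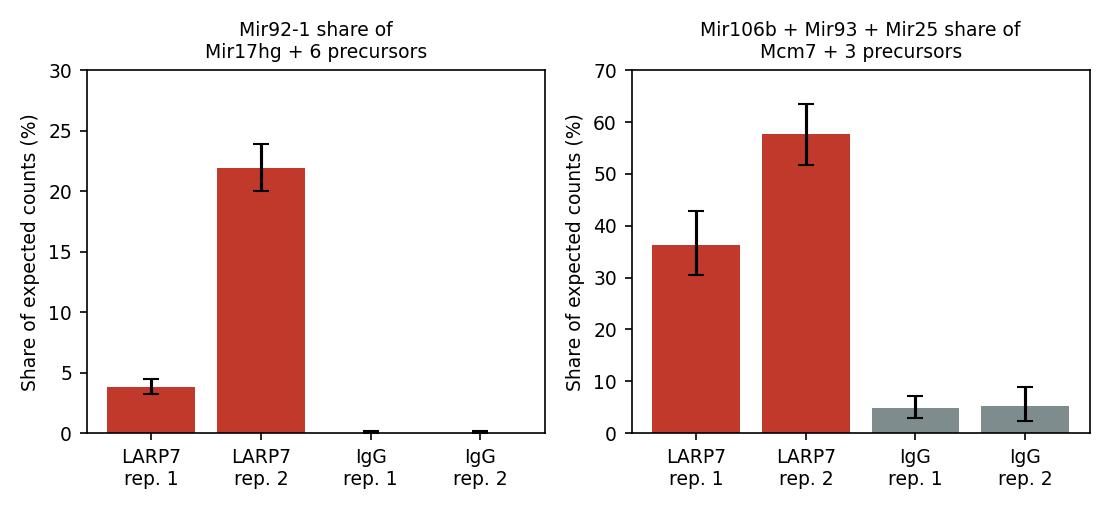
Share of locus counts (%) held by Mir92-1 among Mir17hg and its 6 precursors (left) and by Mir106b, Mir93 and Mir25 together among Mcm7 and these 3 (right), by library, with Clopper-Pearson 95% intervals. The LARP7 libraries are at 3.80% and 21.9% on the left and at 36.3% and 57.7% on the right, above the IgG libraries in both panels.

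Summed over the 3 clusters, the miR-92 family (Mir92-1, Mir92-2, Mir25 and Mir363) had 205.18 and 489.63 counts with LARP7 and 14.40 and 6.55 with IgG. That was 85.7% and 88.4% of the counts of the 4 families with LARP7, and 64.0% and 63.2% with IgG, where they rest on 22.5 and 10.36 counts in all (95% intervals 40.7% to 82.8% and 34.8% to 93.3%). The miR-17 family had 34.34 and 63.48 counts with LARP7 and 8.10 and 3.81 with IgG. The miR-19 family had 0 and 0.82 with LARP7 and 0 with IgG, and the miR-18 family had none in any library.

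Among all 963 microRNA models that match a RefSeq hairpin, 281 had a count in some library and 682 had none, as Mir18, Mir20a and Mir19b-1 did. By summed LARP7 counts Mir92-1 ranked 20, with 19 models above it. The 3 highest were Mir6240, with 3758 and 2863 counts with LARP7 and 40513 and 13344 with IgG, Mir7210, with 611 and 2362 against 375 and 933, and Mir7222, with 1517 and 1437 against 574 and 271. A count with LARP7 and none with IgG was found for 114 models. The share of all gene models with this pattern and the number with the reverse are not given, so it is not read as a trait of microRNA models. Of the 114 models, 2 had at least 50 LARP7 counts, Mir92-1 and Mir5128, the second with 57 and named after its values were seen. Of the 77 microRNA models tested, 60 were higher and 1 lower, with a median log2 fold change of 2.83. By library totals, where 3.95% of all genes were higher and 47.1% lower, the numbers were 42 and 2 and the median was 1.49. A model that passed the filter through its LARP7 counts had little room to be lower.

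The tested gene models whose 4 library values lay closest to the summed precursors were all snRNA models of 107 nt by RefSeq, the length of U6. They were Gm26295, Gm25869, Gm22628, Gm24458 and Gm26317, at Euclidean distances of 1.24, 1.39, 1.61, 1.69 and 1.76 in log2(CPM + 0.5), against a median of 7.51 over 12232 models. Gm26295 had 234.14 and 810.9 expected counts with LARP7 and 0 and 0.29 with IgG. Because they were chosen by these values, these models were, like Mir92-1, higher in LARP7 replicate 2 and low with IgG. Their highest IgG count was 8.77, for Gm22628 in IgG replicate 1. Copies of this length share reads, so they are not separate instances of the pattern, and closeness over 4 libraries is a description only.

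Genes of the pathway that makes and uses microRNAs were read from the same fit. They were listed with activators of the cluster, known targets, other hosts and a neighbouring gene, together called pathway genes here. Of 33 listed genes 23 were tested, 5 higher and 3 lower with LARP7 (background 14.5% and 9.69%), with a median log2 fold change of -0.30 against -0.05 over all genes. By library totals 1 was higher and 15 lower, where 51% of all genes were past the threshold, 3.95% higher and 47.1% lower. The higher ones were the 4 Argonaute genes, of 7 tested genes for Argonautes and their partners, and the target Phlpp2.

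Ago1 averaged 36.2 ± 13.7 CPM with LARP7 and 6.33 ± 3.58 CPM with IgG (SD, n = 2 each; log2 fold change 2.54, edgeR adjusted p = 0.0101), and it was the gene of the list called higher by library totals (1.21, adjusted p = 0.0384). Ago3 averaged 41.9 ± 13.4 CPM with LARP7 and 8.12 ± 2.39 CPM with IgG (2.38, adjusted p = 0.00791 by edgeR), lost by library totals (1.02, adjusted p = 0.0718). Ago2, which encodes the Argonaute that can cut its targets, had the most counts of its group, at 2774 ± 575 CPM with LARP7 and 513 ± 165 CPM with IgG (2.44, edgeR adjusted p = 0.0325). It was no longer called when either LARP7 library (adjusted p = 0.113 and 0.215) or IgG replicate 1 (0.0598) was left out, nor by library totals (0.160). Ago4 was at 1.30 on the log2 scale (edgeR adjusted p = 0.0487), lost without LARP7 replicate 2 (0.272) or either IgG replicate (0.106 and 0.193), with DESeq2 (0.0742) and without the filter (0.0767), and by library totals its direction turned (-0.12).

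Among the earlier steps, Hnrnpa1, whose product is known from human cells to bind the miR-18a hairpin, fell by 2.27 on the log2 scale (edgeR adjusted p = 0.0140), with 2.26 ± 0.41 CPM with LARP7 and 11.3 ± 1.81 CPM with IgG. Tarbp2, whose product is a partner of Dicer, had -1.95 (edgeR adjusted p = 0.0213), lost without LARP7 replicate 2 (0.125). Ran, of the export step, had -1.33 (edgeR adjusted p = 0.0330), lost without LARP7 replicate 2 (0.147), IgG replicate 1 (0.150) or IgG replicate 2 (0.0859) and with DESeq2 (0.0583). Ddx5, the microprocessor gene with the most counts, had 49.8 ± 15.3 CPM with LARP7 and 124 ± 29.1 CPM with IgG (-1.32, edgeR adjusted p = 0.0832), and was called lower with DESeq2 (-1.26, adjusted p = 0.0420) and by library totals (-2.79).

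The activators Myc, Mycn, E2f1, E2f2 and E2f3 were all below the filter, and E2f3, with the most counts of them, had 6 and 5 with LARP7 and 9 and 6 with IgG. Among known targets 5 of 8 were tested. Phlpp2, which encodes a phosphatase of AKT, rose to 15.9 ± 5.06 CPM with LARP7, against 3.07 ± 0.47 CPM with IgG (log2 fold change 2.37, edgeR adjusted p = 0.00987), and its call was lost without LARP7 replicate 2 (0.0585) and by library totals (0.160). The neighbouring gene Gpc5, 47694 nt downstream of Mir92-1, had 0 and 0 counts with LARP7 and 2 and 0 with IgG, so the locus counts were not matched by counts in the next gene.

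Read lengths bear on what a count at a hairpin can be. The effective lengths deposited for models of each length give the share of reads up to that length, library-wide and not for Mir92-1 alone. Reads of up to 24 nt, which a mature arm could give, made up at most 9.33% and 13.8% with LARP7 and at most 9.36% and 8.50% with IgG. Reads of 61 to 80 nt made up 59% and 45% with LARP7 and 31% and 40% with IgG, and reads of up to 80 nt, the length of Mir92-1, 89% and 85% with LARP7 and 82% and 86% with IgG. The LARP7 libraries had the larger shares at 61 to 80 nt, and LARP7 replicate 2 the largest share up to 36 nt, 27% against 17% in LARP7 replicate 1 and 21% and 18% in the IgG libraries. Whether the reads of Mir92-1 were whole hairpins, fragments or arms was not tested.

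**Figure D5:**
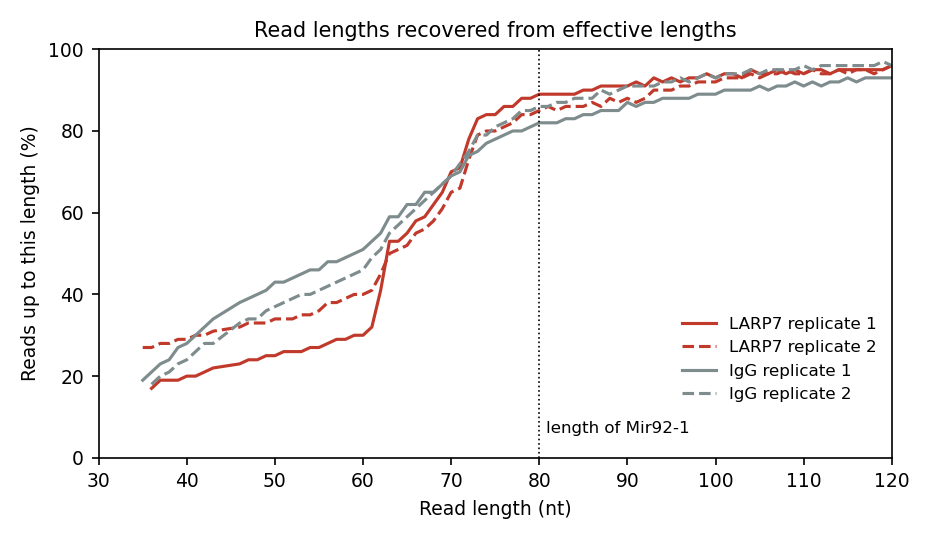
Cumulative share of reads (%) by read length (nt) in the 4 libraries, recovered from the deposited effective lengths, which are rounded and so leave small steps; the dotted line is the 80 nt length of Mir92-1. Between 61 and 80 nt the LARP7 libraries gain 59 and 45 percentage points and the IgG libraries 31 and 40.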

How the data were processed

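RIP libraries of mouse testis, 2 per antibody, were prepared with a small RNA kit and size selected at 15 to 300 nt, per the labels' protocols. The submitters' processing notes name mm10 and the tools cutadapt, Bowtie2 and RSEM, without versions. The deposited files give, per gene model, RSEM's expected count, posterior mean and SD, effective length and the authors' TPM, which rescales counts by effective length and can thus set short models far above long ones.

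Expected counts were rounded and fitted with edgeR 4.0.16 in R 4.3.3 (filterByExpr, TMM, robust quasi-likelihood F test, two-sided, Benjamini-Hochberg over 12234 genes, threshold 0.05), with the antibody as the only term. The TMM factors were 0.558 and 0.673 for LARP7 and 1.85 and 1.44 for IgG, so folds depend on the scaling. Locus shares used unrounded counts. The summed precursors were to have a fitted fold, but both IgG sums were 0, so a bound against 3 counts over the group replaced it. Alternatives were library totals, DESeq2 1.42.0, no filter, limma 3.58.1 on log2(TPM + 1), a replicate block, each library left out, and other divisions of the locus reads. Named genes were all 7 members, the paralogous precursors, pathway genes past the threshold or with the most counts of their role, the 3 microRNA models with the most counts, the 5 nearest models and Rn7sk. Kis2, Gpc5 and Mir5128 were added after their values were seen. The values of 1 listed gene are not reported here. Members and lists were chosen with earlier results of these data known. Sequences and coordinates are RefSeq's (GRCm38.p6), and all 7 members matched by symbol.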

Additional observations from a re-analysis of the deposited data

How the results depend on the processing

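By library totals 483 genes were higher and 5759 lower with LARP7, against 1772 and 1185 by TMM. DESeq2 called 729 lower, and limma on TPM called 0 in either direction, with 4044 genes at an unadjusted p under 0.05. Leaving out 1 library gave 660 to 2138 genes higher and 197 to 922 lower, with both lowest counts without LARP7 replicate 2. Pathway genes numbered 1 higher and 15 lower by library totals and 0 and 0 with limma on TPM, and 2 to 5 higher and 1 to 3 lower without 1 library, the lowest again without LARP7 replicate 2. Paralogous precursors had 2 or 3 higher under every setting except limma on TPM, with 0. On the log2 scale the bound of the summed precursors was 8.71 by TMM, 7.25 by library totals and 7.11 to 9.15 without 1 library, and with host counts spread evenly, taking the host model to cover all 6 hairpins, the ratio was 2.84. For Mir92-1 these were 8.70, 7.24, 7.10 to 9.14 and 5.34, and neither turned in direction. Mir17hg was at 1.29 by TMM, -0.16 by library totals, -1.29 with limma on TPM and 0.24 to 1.88 without 1 library. Under RSEM's division of reads, the Mir92-1 share of the precursors was 99.1% to 100% with a LARP7 library left out. With host counts spread evenly, taking the host model to cover all 6 hairpins, Mir92-1 held 567.93 of 806.01 precursor counts over the LARP7 libraries. The mean share of Mir92-1 at the locus was 91.8% in TPM against 12.9% in counts. The cause of these shifts was not tested.

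With the replicate number as a block, 2088 genes were higher and 1405 lower, 6 and 4 among pathway genes and 2 and 0 among paralogous precursors, and Mir17hg was at 1.11. Ddx5 was then called lower (-1.33, edgeR adjusted p = 0.0259). Same-numbered libraries deviated together at r = 0.20 over 12234 genes, across genes of 2 pairs, and share only a number. The bounds have no value with limma on TPM, where the IgG libraries are listed at 0, and a block does not enter them. The 5 other precursors are limited by their counts: at 0 to 2.87 no difference was detectable. RSEM may also have left reads of these hairpins with the host. Even host coverage would put 191 and 75.3 reads with LARP7 and 151 and 111 with IgG into the 6 hairpins, if the host model covers all of them. The part of depth and of the division of reads was not tested.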
